A study of Mus musculus with 2 samples.

Results

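The CatSper channel was followed here through 8 of its genes, Catsper1, Catsper2, Catsper3, Catsper4, Catsperb, Catsperd, Catsperz and Efcab9, taken by symbol from the 36547 genes counted in the single-cell libraries. All 8 had counts in both libraries. The libraries were made from testes of C57BL/6 mice, 12 weeks old, 1 from WT mice and 1 from Alkbh5-/- mice (KO), which lack the RNA demethylase ALKBH5. The introduction of the study describes 1 mouse per genotype and its methods describe 3, so each library could hold RNA of 1 animal or of several, and the differences between WT and KO given below have no replicate check. Each value is a number of UMIs, the tags that mark single captured RNA molecules, and levels are counts per 1000000 UMIs of the same cells (CPM). The intervals cover counting error at 95% only.

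CatSper is the calcium channel of the sperm tail. Its pore is built from CATSPER1, CATSPER2, CATSPER3 and CATSPER4, and single-pass proteins such as CATSPERB and CATSPERD cover the pore on the outside of the cell. Inside the cell, EFCAB9, an EF-hand calcium sensor, and CATSPERZ form a partnership that the channel needs for its ordered rows along the tail. Calcium entry through the channel drives hyperactivated motility, and male mice without the pore proteins are infertile.

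In the GENCODE vM21 annotation of GRCm38, matched by symbol because the tables carry no coordinates, the 8 genes lay on 7 chromosomes and all were protein coding. Catsper1 was at chr19:5335741-5344280 on the plus strand and Catsperz at chr19:6922371-6925380 on the minus strand. Catsper2 was at chr2:121392631-121413792 (minus), Catsper3 at chr13:55784568-55808998 (plus) and Catsper4 at chr4:134211970-134227383 (minus). Catsperb was at chr12:101404653-101626009 (plus), Catsperd at chr17:56628143-56664456 (plus) and Efcab9 at chr11:32522751-32532081 (minus). The 5′ part of Catsperz overlaps Kcnk4, a potassium channel gene on the same strand from 6923966 to 6934515, so how its reads were assigned is uncertain, and Kcnk4 itself had 6 UMIs in WT and 4 in KO germ cells. The start of Catsper2 overlaps that of Pdia3 on the opposite strand, and whether strand was used in counting is not given in the sources used here.

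Upstream sequence is shown for 4 genes, 2 from each of the expression groups described below, because those groups differ in when the genes came on. RefSeq promoters on GRCm38.p6 were found for 7 of the 8 genes, and the 4 printed are those whose stretch upstream of the start held no annotated exon once exonic bases next to the start were left out. Each reads 5′ to 3′ on the gene's strand, and capitals mark AACNG on either strand, the core bound by MYB factors, of which MYBL1 is the regulator of male meiosis. Catsperb is chr12:101404423-101404652 (plus), Catsperd is chr17:56627893-56628142 (plus), Catsper4 is chr4:134227384-134227633 (minus) and Efcab9 is chr11:32527580-32527824 (minus), at a RefSeq start that lies inside the longer GENCODE gene.
Catsperb: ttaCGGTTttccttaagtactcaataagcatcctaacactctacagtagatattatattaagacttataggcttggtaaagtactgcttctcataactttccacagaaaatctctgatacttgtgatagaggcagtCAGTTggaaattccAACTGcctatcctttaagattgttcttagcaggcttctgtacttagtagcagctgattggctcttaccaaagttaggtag
Catsperd: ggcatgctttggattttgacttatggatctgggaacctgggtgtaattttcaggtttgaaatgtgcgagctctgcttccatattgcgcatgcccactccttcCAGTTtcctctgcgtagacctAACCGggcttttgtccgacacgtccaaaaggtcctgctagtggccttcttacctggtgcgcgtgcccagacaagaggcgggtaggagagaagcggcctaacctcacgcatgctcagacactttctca
Catsper4: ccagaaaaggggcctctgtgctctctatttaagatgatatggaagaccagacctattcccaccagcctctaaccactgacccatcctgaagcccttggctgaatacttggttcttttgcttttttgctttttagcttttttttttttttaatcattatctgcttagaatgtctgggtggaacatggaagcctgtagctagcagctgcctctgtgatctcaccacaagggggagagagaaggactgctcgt
Efcab9: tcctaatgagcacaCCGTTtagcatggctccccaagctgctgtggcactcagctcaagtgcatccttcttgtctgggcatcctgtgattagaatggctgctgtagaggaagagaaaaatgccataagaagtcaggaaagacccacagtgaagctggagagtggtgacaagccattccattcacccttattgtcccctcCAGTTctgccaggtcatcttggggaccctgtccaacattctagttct

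The 250 bases upstream of the start held 5 AACNG matches in Catsperb, 3 of them in the printed stretch, and 2.40% of the 32851 promoters of the table held as many. Catsper2, Catsperz, Efcab9 and both starts of Catsperd held 2 each, which 42.0% of promoters reached, and Catsper3 and Catsper4 held none. The full cAMP response element, TGACGTCA, bound by the spermatid regulator CREM, was in none of the 8 windows and in 1.55% of all promoters. Its shorter form TGACG, on either strand, was found once for Catsper2 and 3 times at the upstream start of Catsperd, and 17.8% of promoters held it. CpG dinucleotides numbered 35 for Catsper2, 25 and 11 for the starts of Catsperd, 7 for Catsperz and 1 for Catsperb, against 2, 1 and 1 for Catsper3, Catsper4 and Efcab9 and a median of 6 over all promoters. The Catsper2 and Catsperz windows lie wholly in exons of neighbouring transcripts and are not printed.

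There were 5756 barcodes and 80283221 UMIs in WT and 7012 barcodes and 82056760 UMIs in KO, and 45 barcodes occurred in both. The lowest depth of a barcode was 5142 UMIs in WT and 4792 in KO. Alkbh5 had 607 UMIs in WT and 5 in KO. Clustering without the CatSper genes and their partners gave 16 clusters, of which 12 carried germ cell markers, with 5585 WT and 5263 KO cells. They are named by class and, where a class has several clusters, by 1 leading gene: spermatogonia-like, early spermatocyte-like, the late spermatocyte-like clusters Piwil1 and Pabpc6, the round spermatid-like clusters Ssxb1, Gip, Cd46 and Cst13, and the elongating spermatid-like clusters Prss58, Tnp2, Klk1b8 and Spem1. Their order follows the markers of successive stages. Spermatogonia-like cells were 3.27% of WT and 15.2% of KO cells and the Spem1 cluster 9.69% and 2.14%, so pooled germ cells differ in stage between the libraries.

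The 8 genes fell into an earlier and a later group. Catsper2, Catsperb, Catsperd and Catsperz were highest in a late spermatocyte-like cluster, and Catsper1, Catsper3, Catsper4 and Efcab9 were highest in the Gip round spermatid-like cluster, with the same division of 4 and 4 in WT and KO. The earlier group thus joins 1 pore gene to both single-pass covers and to Catsperz, while the other 3 pore genes and the calcium sensor Efcab9 make up the later group. EFCAB9 and CATSPERZ, which work as a pair, were in different groups.

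**Figure D1:**
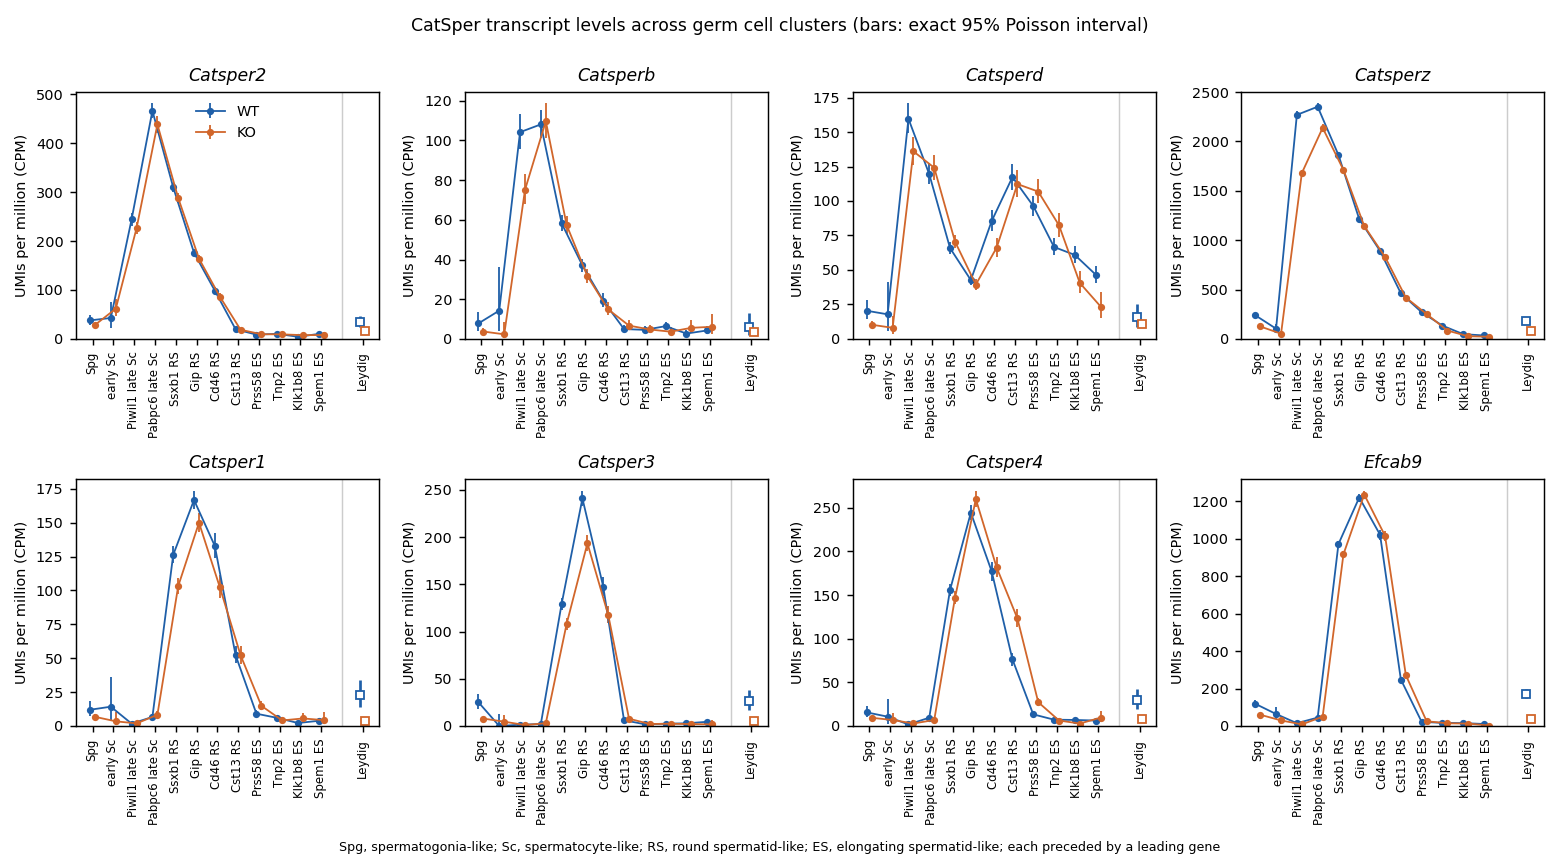
Level of each CatSper gene (CPM, linear axis from 0) in the 12 germ cell clusters in order of stage, for WT (blue) and KO (orange), with exact 95% Poisson intervals and Leydig-like cells as open squares on the right. The upper row peaked in late spermatocyte-like cells, Catsperd with another maximum of 117 CPM in the WT Cst13 cluster, and the lower row peaked in the Gip round spermatid-like cluster.

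Catsper2, the pore gene of the earlier group, was at 244 CPM in the Piwil1 cluster of WT (95% interval 231 to 258), 466 in the Pabpc6 cluster (451 to 481), 310 in Ssxb1, 176 in Gip, 98.6 in Cd46 and 19.6 in Cst13. In KO the same clusters were at 227, 438 (421 to 456), 288, 164, 86.5 and 18.6 CPM. The level was thus highest in the second late spermatocyte-like cluster and lower at each later step in both libraries. All elongating spermatid-like clusters were at 10.3 CPM or less.

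Catsperb, a cover protein gene, was at 104 CPM (95.6 to 113) in Piwil1 and 108 (101 to 116) in Pabpc6 of WT, whose intervals overlap, and at 75.1 (67.9 to 82.9) and 110 (101 to 119) in KO, whose intervals do not. After that it was at 58.3, 37.0 and 19.2 CPM in the Ssxb1, Gip and Cd46 clusters of WT and 57.4, 31.6 and 14.8 in KO. Catsperz was at 2270 CPM in Piwil1, 2353 in Pabpc6, 1863 in Ssxb1, 1213 in Gip, 891 in Cd46, 462 in Cst13 and 270 in Prss58 of WT. Its KO levels were 1680, 2138, 1712, 1143, 830, 419 and 251 CPM. Catsperz was at or above 10% of its peak in 8 WT and 7 KO clusters, spermatogonia-like cells among them in WT, and Catsper2 in 5 and 6.

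Catsperd, the other cover protein gene, had 2 maxima. In WT it was highest in Piwil1 at 160 CPM (149 to 171), was at 119 in Pabpc6, 65.8 in Ssxb1 and 42.6 (39.3 to 46.2) in Gip, and was higher again at 85.4 in Cd46 and 117 (108 to 127) in Cst13. The later clusters were at 96.4 in Prss58, 66.6 in Tnp2, 60.9 in Klk1b8 and 46.6 in Spem1. In KO the Piwil1, Pabpc6, Ssxb1, Gip, Cd46 and Cst13 clusters were at 136, 124, 70.5, 39.4, 66.1 and 112 CPM. The low point in Gip and the return in Cst13 were thus seen in both libraries, with intervals that do not overlap. Elongating spermatid-like cells held 28.9% of the germ cell UMIs of Catsperd in WT and 22.9% in KO. They held at most 4.04% of those of any other of the 8 genes in either library. For Catsperg1, a cover protein gene outside the 8, they held 22.7% in WT and 12.5% in KO. These shares also depend on cell numbers, and each elongating spermatid-like cluster was a smaller percentage of KO than of WT cells. As a level, Catsperd was at 69.5 CPM in WT and 79.9 in KO elongating spermatid-like cells. Catsperg1 was at 13.2, 9.88, 11.8 and 21.2 CPM in Prss58, Tnp2, Klk1b8 and Spem1 of WT. Its KO levels there were 12.9, 10.8, 14.7 and 26.1 CPM.

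Catsper1, Catsper3 and Catsper4 of the later group were nearly absent from late spermatocyte-like cells. Efcab9 was at 15.0 and 44.7 CPM in the Piwil1 and Pabpc6 clusters of WT and at 8.58 and 49.8 in KO. Catsper1 was at 1.73 and 6.66 CPM in the Piwil1 and Pabpc6 clusters of WT. It was then at 126 (120 to 133) in Ssxb1, 167 (160 to 174) in Gip, 133 in Cd46 and 52.2 in Cst13. Its KO levels in these clusters were 1.91, 8.26, 103, 150 (143 to 157), 102 and 52.2 CPM. Catsper3 was at 129, 241 (233 to 249), 148 and 6.07 CPM in Ssxb1, Gip, Cd46 and Cst13 of WT and at 108, 193 (185 to 202), 118 and 7.72 in KO. Between Cd46 and Cst13 the gap was thus wider for Catsper3 than for Catsper1. Catsper4 was at 156, 244 (236 to 253), 177 and 76.3 CPM in WT and at 147, 260 (250 to 270), 182 and 123 in KO. Efcab9 was at 972, 1221 (1203 to 1239), 1022 and 248 CPM in WT and at 917, 1237 (1216 to 1258), 1016 and 272 in KO.

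The order of the clusters was clear for most peaks. The peak and the next cluster had intervals that did not overlap for all 4 genes of the later group and for Catsper2 and Catsperz in both libraries. For Catsperb the first and second clusters were not told apart in WT, and for Catsperd in KO neighbours among the first 4 clusters overlapped, while the fourth was apart from the fifth.

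Round spermatid-like cells as a whole had 27.8-fold more Catsper1, 86.4-fold more Catsper3, 27.9-fold more Catsper4 and 29.3-fold more Efcab9 than late spermatocyte-like cells in WT, and 21.3-fold, 61.3-fold, 37.9-fold and 31.5-fold more in KO. In the other direction, late spermatocyte-like cells had 2.03-fold more Catsper2, 2.89-fold more Catsperb, 2.00-fold more Catsperd and 1.82-fold more Catsperz in WT. Of all germ cell UMIs, 97.7% of Catsper3 and 97.1% of Efcab9 were in round spermatid-like cells of WT, against 56.9% of Catsper2 and 41.3% of Catsperd. Over the 24 values per gene (12 clusters in 2 libraries) Pearson's r of log2(CPM + 1) was 0.86 to 0.98 within Catsper1, Catsper3, Catsper4 and Efcab9 taken pairwise, highest for Catsper1 with Catsper4 and lowest for Catsper1 with Catsper3. It was 0.91 for Catsper2 with Catsperb, 0.86 for each of these with Catsperz, 0.46 for Catsperd with Catsperb and 0.21 for Catsperd with Catsper2. Some pairs across the groups were higher than these, with 0.59 for Catsperz with Efcab9 and 0.51 for Catsper2 with Efcab9. The points share libraries and depth, and the coefficients are descriptions.

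Among 11475 genes with at least 500 UMIs, the profile closest to Catsper1 was that of Spata46 (r = 0.982 over 24 values), followed by 1700049L16Rik and Catsper4 (both 0.976). The closest to Catsper4 was Catsper1, then Spata46 (0.972) and 1700073E17Rik (0.970). Catsper2 was most like Bbof1 and Rnf32 (both 0.992) and Nuggc (0.985), and Catsperb most like Ccdc144b and 9530002B09Rik (both 0.980) and Spag6 (0.979). For Catsper3 the closest were Smim9 (0.976), Acot10 (0.975) and Adam20 (0.973). Catsperz was closest to 4930567K20Rik (0.985), Ccdc87 (0.984) and 1700025K04Rik (0.982), and Efcab9 to Fam209 (0.979), Rbms1 (0.978) and Fyb (0.974). Catsperd, with its 2 maxima, had the least close partners, Usp2 (0.918), Sept12 (0.903) and Asrgl1 (0.897). Spata46 and Fam209 were among the markers that named the cells.

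UMIs of the channel genes were also found outside the germ line, at levels that differ between somatic cell types and between the libraries. In Leydig-like cells, which should not make the channel, Efcab9 was at 171 CPM in WT and 36.8 in KO, and Catsperz at 185 and 81.0. For Efcab9 these are 14% and 2.98% of the peak. In WT the mixture was near that of round spermatid-like cells. Catsperz made up 37.7% and Efcab9 34.9% of the 501 CatSper UMIs in the 93 WT Leydig-like cells, and 42.5% and 32.3% of those in WT round spermatid-like cells. In KO Leydig-like cells Catsperz was 48.8% and Efcab9 22.2% of 1706 UMIs, against 41.8% and 33.6% in KO round spermatid-like cells. Macrophage-like cells held more, with all 8 genes summed at 1766 CPM in 24 WT cells and 1343 in 82 KO cells, against 3007 and 2817 in round spermatid-like cells. Values of spermatogonia-like cells lay on either side of the Leydig-like ones. Catsperz was at 239 CPM in WT and 125 in KO, against 185 and 81.0 in Leydig-like cells. Efcab9 was at 119 and 60.1, against 171 and 36.8. In spermatogonia-like cells the KO value was the lower for all 8 genes, with an interval of the ratio that reached 0 for Catsper2. How far RNA from other cells enters the spermatogonia-like values was not tested.

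To compare shares of cells, every cell was thinned to 5000 UMIs, which left out no WT cell and 241 KO cells, 177 of them germ cells. In late spermatocyte-like cells 81.3% of WT (78.3 to 84.1) and 74.3% of KO cells (70.8 to 77.7) had a UMI of Catsper2, with 94.3% and 91.4% before thinning. Catsperb was found in 39.7% of WT (36.1 to 43.5) and 34.9% of KO cells (31.2 to 38.7), Catsperd in 45.3% and 43.2% and Catsperz in 99.7% and 96.2%. Of the later group, Catsper1, Catsper3 and Catsper4 were found in 1.27% to 2.97% of WT and 1.84% to 3.23% of KO cells. The shares in Leydig-like cells were 5.38% to 6.45% in WT, and 1.6% to 2.31% in KO with intervals that overlap gene by gene. In the Pabpc6 cluster of KO alone, Catsper1 was found in 5.21% of cells (3.16 to 8.01), apart from the KO Leydig-like share of 1.6% (0.952 to 2.52), though not from the macrophage-like share of 8.97% (3.68 to 17.6).

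In round spermatid-like cells, thinned alike, Catsper1 was found in 44.0% of WT (41.9 to 46.0) and 40.6% of KO cells (38.5 to 42.8), with 75.0% and 69.1% before thinning. Catsper3 was found in 46.9% of WT (44.8 to 49.0) and 42.1% of KO cells (40.0 to 44.3), with 69.9% and 64.5% before thinning. Catsper4 was found in 55.3% and 56.1% and Efcab9 in 90.1% and 88.7%, with overlapping intervals. The shares of Leydig-like cells ranged over the 8 genes from 1.08% to 19.4% in WT and from 1.6% to 14.1% in KO, below the round spermatid-like shares of every gene, at median depths of 9977 and 7872 UMIs before thinning. Between the libraries only the intervals of Catsper3 were thus apart among these 4 genes.

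**Figure D2:**
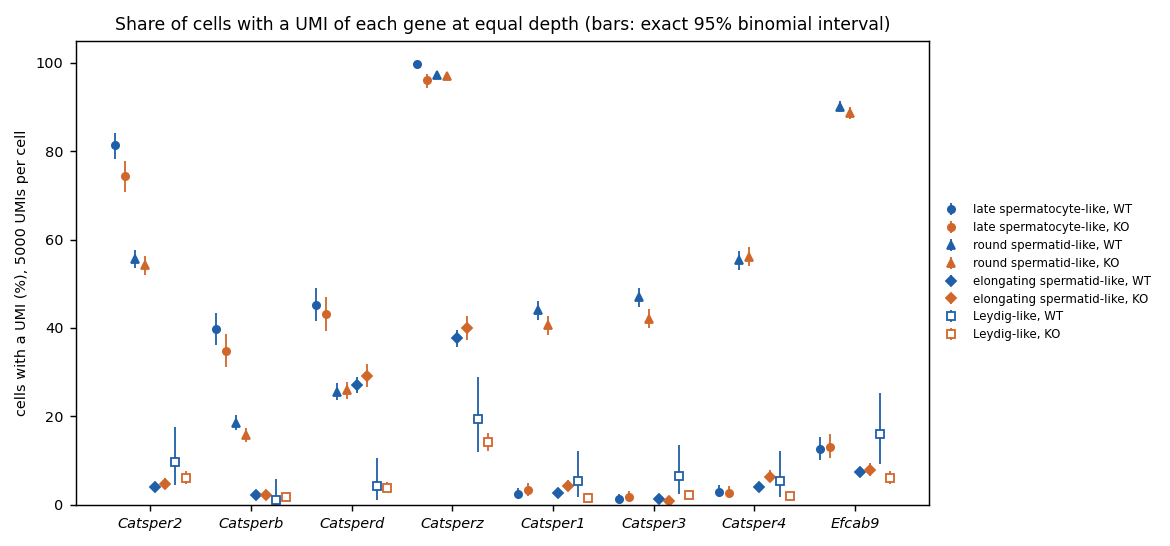
Percentage of cells with at least 1 UMI of each CatSper gene after every cell was thinned to 5000 UMIs, in late spermatocyte-like (circles), round spermatid-like (triangles), elongating spermatid-like (diamonds) and Leydig-like cells (open squares) of WT (blue) and KO (orange), with exact 95% binomial intervals. Catsper1, Catsper3 and Catsper4 were found in 40.6% to 56.1% of round spermatid-like cells and in at most 3.23% of late spermatocyte-like cells.

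All 4 pore genes were seen together in 10.4% of thinned WT round spermatid-like cells (9.14 to 11.7) and 7.95% of KO cells (6.82 to 9.20). The Gip cluster had the 4 together in 17.1% of WT (14.5 to 19.9) and 14.3% of KO cells (11.8 to 17.2). The intervals of WT and KO overlap in both cases. In late spermatocyte-like cells they were seen together in 0 of 707 WT cells, which allows a share of up to 0.424% when the limit of a count of 0 is set at 3 counts, and 0 of 651 KO cells, which allows up to 0.461% (exact upper bounds 0.52% and 0.565%). At least 5 of the 8 genes were found in 48.9% of WT round spermatid-like cells (46.8 to 51.0) and 44.0% of KO cells (41.8 to 46.2). Because a thinned cell shows a gene only where its RNA was captured, these shares can miss cells that hold the RNA. At least 5 of the 8 genes were also found in 12.5% of WT (2.66 to 32.4) and 15.4% of KO macrophage-like cells (8.21 to 25.3). In Leydig-like cells these shares were 5.38% in WT and 1.07% in KO. How far RNA from other cells raises the round spermatid-like shares was not tested.

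The comparison of KO with WT asks whether the channel genes were altered where ALKBH5 is missing. In pooled germ cells the differences were small. Catsper3 was at 76.5 CPM in WT and 62.2 in KO, a log2 ratio of KO to WT of -0.30 (-0.36 to -0.24). Catsper1 was at 66.1 and 58.0 CPM (-0.19, -0.25 to -0.13), Catsperz at 1054 and 939 (-0.17, -0.18 to -0.15) and Catsperb at 37.5 and 33.4 (-0.16, -0.24 to -0.08). Catsperd was at 78.5 and 71.3 CPM (-0.14, -0.19 to -0.08) and Catsper2 at 158 and 146 (-0.11, -0.15 to -0.07). Catsper4 was at 90.9 and 96.7 CPM (0.09, 0.04 to 0.14), and Efcab9 at 479 in both. The median log2 ratio of the 8 genes was -0.15, and -0.17 when each germ cell cluster had equal weight, against 0.05 and 0.01 for the 4603 genes found often enough to be judged. Over the 19635 genes with at least 50 UMIs the median was 0.28 pooled and 0.07 with equal weight.

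None of the 8 passed a size criterion made of the minimum share of cells in the study's methods and a difference the methods do not state, taken from the usual setting of the same software. It asks that 25% or more of WT or of KO cells have a UMI, and that the natural log of the mean plus 1, after scaling each cell to 10000, differ by 0.25 or more. Of the 4603 genes judged, 11.5% passed it upward in KO and 5.84% downward. With a CPM ratio of at least 1.5 in its place, again none of the 8 passed, where 35.4% of 19641 genes were higher and 5.94% lower in KO. As no test is possible with 1 library per genotype, a value that misses a size criterion does not show that the libraries are alike.

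**Figure D3:**
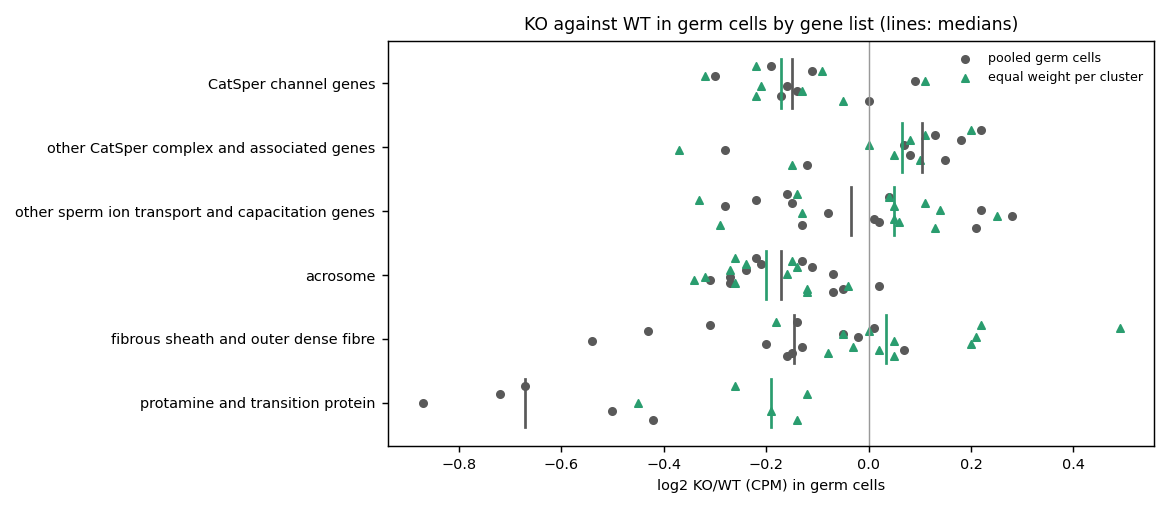
log2 ratio of KO to WT in germ cells for the CatSper channel genes and 5 other lists, 1 point per gene, from pooled germ cells (circles) and with equal weight per germ cell cluster (triangles), with vertical lines at the medians. The CatSper channel genes have medians of -0.15 and -0.17, and the protamine and transition protein genes -0.67 and -0.19.

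Acrosome genes, from a list of 12, had medians of -0.17 pooled and -0.20 with equal weight, near those of the CatSper genes. The 5 protamine and transition protein genes, which belong to the last stages, were at -0.67 pooled and -0.19 with equal weight, and all 5 passed the size criterion downward in pooled germ cells. The 12 genes of the fibrous sheath and outer dense fibre were at -0.14 and 0.03. For the CatSper genes, in contrast to these 2 lists, the weighting of stages moved the median by little, though the lists were not compared by a test.

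Within the late spermatocyte-like clusters the larger differences of the earlier group lay in Piwil1. There Catsperz was at 2270 CPM in WT and 1680 in KO, a log2 ratio of -0.43 (-0.47 to -0.39), which passed the size criterion downward. Catsperb was at 104 and 75.1 CPM (-0.47, -0.66 to -0.28), Catsperd at 160 and 136 (-0.23, -0.38 to -0.09) and Catsper2 at 244 and 227 (-0.11, -0.22 to 0.01). In the next cluster, Pabpc6, the same genes were closer, with -0.14 (-0.17 to -0.10) for Catsperz, 0.02 (-0.13 to 0.17) for Catsperb, 0.06 (-0.09 to 0.20) for Catsperd and -0.09 (-0.16 to -0.02) for Catsper2. The size criterion was passed by 1 of 4 genes judged in Piwil1 and by 0 of 5 in Pabpc6, where 1.88% and 1.12% of all genes judged passed in either direction. In spermatogonia-like cells Catsperz was the only gene judged and passed downward, at a background of 3.36% in either direction, with the Leydig-like levels given above also lower in KO. By the CPM ratio, 6 of 7 genes, all but Catsper2, were lower in spermatogonia-like cells, against 13.7% of all genes, and 1 of 5, Efcab9, in Piwil1, against 7.16%. Efcab9 in Piwil1, at 15.0 CPM in WT and 8.58 in KO, was below its Leydig-like levels of 171 and 36.8.

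In the first 3 round spermatid-like clusters Catsper1, Catsper3, Catsper2 and Catsperz were lower in KO each time, with intervals below 0. The log2 ratios of Catsper3 were -0.26 (-0.37 to -0.15) in Ssxb1, -0.32 (-0.40 to -0.24) in Gip and -0.33 (-0.48 to -0.18) in Cd46. Those of Catsper1 were -0.29 (-0.40 to -0.18), -0.15 (-0.25 to -0.06) and -0.38 (-0.53 to -0.22). Efcab9, which had nearly the same profile, was at -0.08 (-0.12 to -0.05), 0.02 (-0.01 to 0.05) and -0.01 (-0.06 to 0.04). Catsper4 was at -0.08 (-0.18 to 0.01), 0.09 (0.02 to 0.16) and 0.04 (-0.09 to 0.16). In the earlier group Catsper2 was at -0.11, -0.10 and -0.19, and Catsperz at -0.12, -0.09 and -0.10. Catsperb was at -0.02, -0.23 and -0.37, with an interval below 0 in Gip only. Catsperd was at 0.10, -0.11 and -0.37, with an interval below 0 in Cd46 only. In Gip and Cd46 the intervals of Catsper1 and Catsper3 thus lay below those of Catsper4 and Efcab9, while in Ssxb1 they reached that of Catsper4. None of the 8 genes judged in each passed the size criterion, which 1.69% of genes passed in Ssxb1, 3.84% in Gip and 4.09% in Cd46.

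Catsper4 was higher in KO as the round spermatid stage ended. In the Cst13 cluster it was at 76.3 CPM (69.0 to 84.2) for WT and 123 (113 to 133) for KO, a log2 ratio of 0.69 (0.50 to 0.88), and it passed the size criterion upward, as 1 of 5 genes judged where 5.10% of all genes passed in either direction. By the CPM ratio it was 1 of 8 genes upward, where 14.2% of genes were. In the Prss58 cluster it was at 13.3 CPM (10.8 to 16.3) for WT and 27.3 (23.2 to 31.9) for KO, a log2 ratio of 1.03 (0.66 to 1.42), and Catsper1 at 9.07 and 14.9 (0.71, 0.23 to 1.20). These 2 of the 7 genes with enough UMIs passed the CPM ratio upward there, against 15.0% of all genes. In WT both Prss58 levels were below the Leydig-like ones of 29.3 CPM for Catsper4 and 22.5 for Catsper1. In KO they were above the Leydig-like 7.89 and 3.99. Macrophage-like cells were higher in both libraries, at 145 and 70.6 CPM for Catsper4 and 51.6 and 33.5 for Catsper1. The part of RNA from other cells in the Prss58 values was not tested. In Cst13, Catsper1 was at 52.2 CPM in both libraries. Efcab9 had smaller log2 ratios of 0.13 (0.02 to 0.24) and 0.18 (-0.16 to 0.51) in Cst13 and Prss58. After thinning, 30.7% of WT and 47.2% of KO cells of the Cst13 cluster had a UMI of Catsper4, and 60.2% and 74.0% before it.

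**Figure D4:**
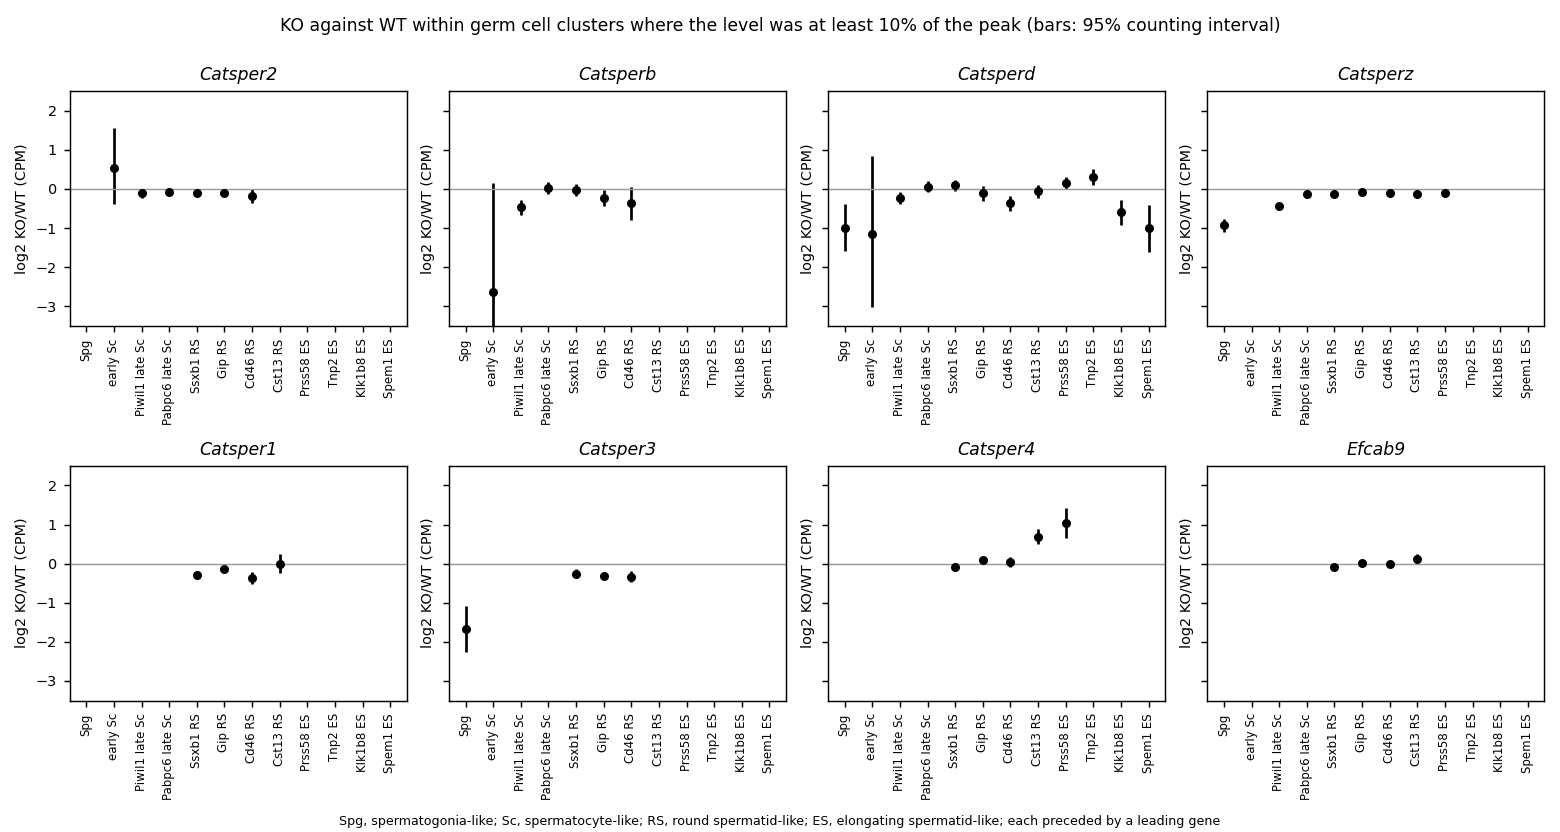
log2 ratio of KO to WT for each CatSper gene in the germ cell clusters where its level was at least 10% of its peak in 1 of the libraries, with 95% counting intervals and a line at 0. Most points lie within 0.5 of 0. Catsper4 is at 0.69 in Cst13 and 1.03 in Prss58, and Catsperd at -0.99 in Spem1. In spermatogonia-like cells Catsper3 is at -1.68 (-2.26 to -1.09), Catsperd at -0.99 and Catsperz at -0.93. Catsperb is at -2.64 and Catsperd at -1.15 in early spermatocyte-like cells, with bars that cross 0. Their lower bars run beyond the axis or near its end.

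In elongating spermatid-like cells Catsperz was still at 270 CPM in Prss58 of WT and 251 in KO. These were above its Leydig-like levels but below its macrophage-like levels of 707 and 632. In the next cluster, Tnp2, Catsperz was at 134 and 83.8. Catsperd was above its Leydig-like level of 15.6 CPM in WT and 10.8 in KO in all 4 clusters. In WT, however, Sertoli-like cells were at 59.1 CPM (39.9 to 84.4) and macrophage-like cells at 54.9 (32.0 to 87.9). Both intervals cover the WT levels of Tnp2, Klk1b8 and Spem1. In KO, Sertoli-like cells were at 14.9 CPM and macrophage-like cells at 29.7 (19.1 to 44.2). The latter interval covers the KO levels of Klk1b8 and Spem1. The log2 ratio of Catsperd was 0.15 (-0.01 to 0.31) in Prss58, 0.31 (0.10 to 0.51) in Tnp2, -0.59 (-0.92 to -0.27) in Klk1b8 and -0.99 (-1.62 to -0.41) in Spem1, where WT was at 46.6 CPM from 231 UMIs and KO at 23.5 from 27. The ratio thus turned from above to below 0 between Tnp2 and Klk1b8. In these 4 clusters and in early spermatocyte-like cells none of the 1 or 2 CatSper genes judged passed the size criterion, which 6.74%, 8.58%, 9.81%, 16.9% and 11.6% of genes passed in either direction in Prss58, Tnp2, Klk1b8, Spem1 and early spermatocyte-like cells. By the CPM ratio, 2 of 7 genes with enough UMIs were lower in Tnp2 (Catsperb and Catsperz), 3 of 4 in Klk1b8 (Catsper4, Catsperd and Catsperz) and 3 of 4 in Spem1 (Catsperd, Catsperz and Efcab9), where 9.74%, 9.66% and 8.53% of all genes were lower. Of 2 genes in early spermatocyte-like cells, Catsperz was lower, against 10.7% of all genes. Many of these ratios rest on few KO UMIs, such as 7 for Catsper4 in Klk1b8 and 3 for Efcab9 in Spem1. Catsper4 in Klk1b8, at 6.9 CPM in WT and 2.78 in KO, was below its Leydig-like levels of 29.3 and 7.89. Efcab9 in Spem1, at 10.7 and 2.61 CPM, was also below its own, as was Catsperz in Klk1b8 (47.5 and 26.2) and Spem1 (34.3 and 21.7).

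Other genes of the complex were taken from a fixed list of 9, of which 8 were matched. Catspere and Gm16432 stand for the 2 copies of the CATSPERE gene by their RefSeq synonyms, and Catsperg1 and Catsperg2 are near-identical copies, so reads may be split between the members of each pair. In both libraries 7 of the 8 peaked in late spermatocyte-like cells, among them the cover genes Catsperg1, Catsperg2, Catspere and Gm16432 and the genes Slco6c1, C2cd6 and Trim69. Tmem262 alone peaked in round spermatid-like cells, at 128 CPM in the Gip cluster of WT and 105 in KO. Catsperb and Catsperd included, all 6 cover genes counted here therefore belonged to the earlier group.

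**Figure D5:**
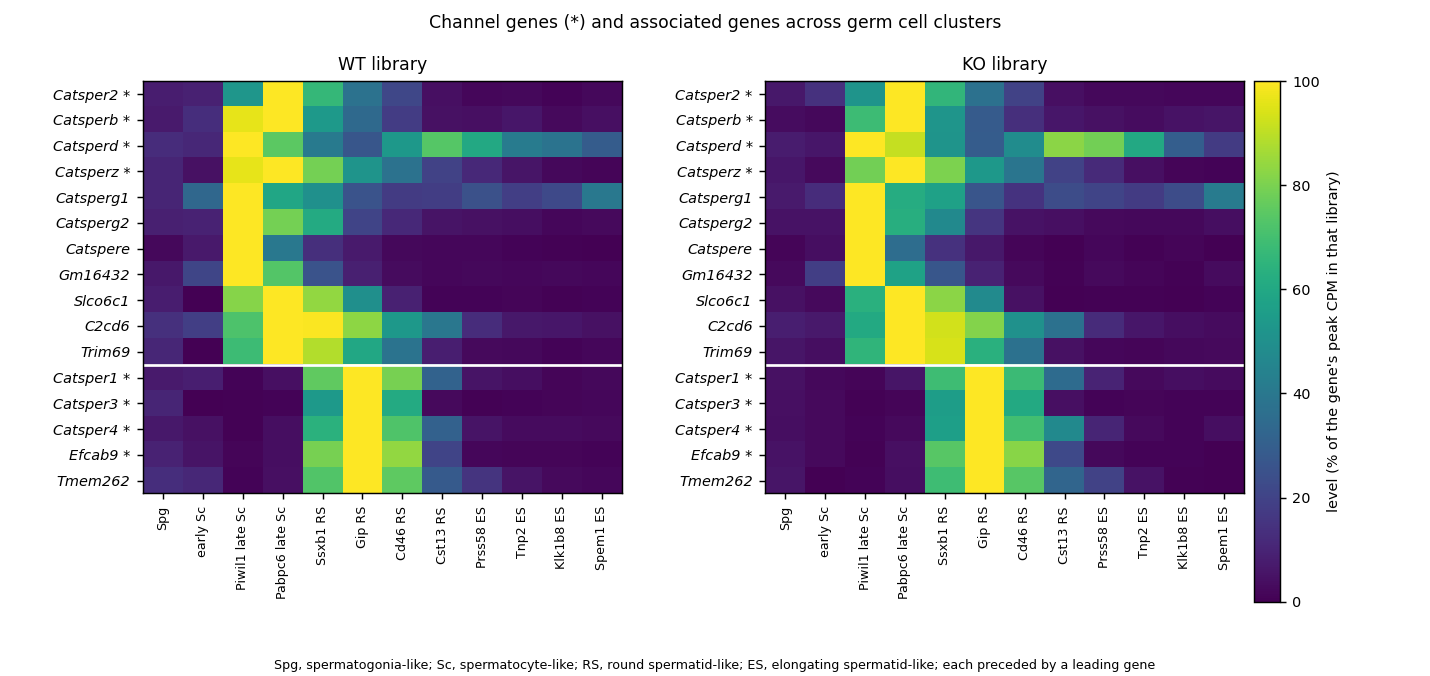
Level of the 8 CatSper channel genes (marked with an asterisk) and 8 associated genes in the 12 germ cell clusters in order of stage, as a percentage of the gene's own highest CPM in that library, WT on the left and KO on the right. The 11 genes above the white line peaked in the Piwil1 or Pabpc6 late spermatocyte-like cluster and the 5 below it in the Gip round spermatid-like cluster.

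Catspere had 72.6% of its WT germ cell UMIs in late spermatocyte-like cells, the highest share there among the 8, with levels of 52.6 CPM in Piwil1 and 21.0 in Pabpc6. Catsperg1 went from 53.0 CPM in Piwil1 to 31.3 in Pabpc6 and had 22.7% of its UMIs in elongating spermatid-like cells of WT, the only one of the 8 associated genes with more than 5.41% there. In pooled germ cells 6 of the 8 had a log2 ratio above 0, from 0.07 (-0.03 to 0.17) for Gm16432 to 0.22 (0.12 to 0.32) for Catsperg1, and the median was 0.10. Tmem262 was at 50.9 CPM in WT and 41.9 in KO (-0.28, -0.35 to -0.21), close to Catsper3, and Trim69 at -0.12 (-0.17 to -0.08). In the Piwil1 cluster, where Catsperb was lower in KO, Catsperg2 was at 73.4 CPM in WT and 96.1 in KO. None of the 4 judged passed the size criterion.

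A further list of 14 genes for ion transport and capacitation, the ripening of sperm for fertilisation, had 12 with at least 50 UMIs in germ cells, a median log2 ratio of -0.04 pooled and 0.05 with equal weight, and 0 of 7 judged past the size criterion in either direction. Of these 12, 6 peaked in late spermatocyte-like, 5 in round spermatid-like and 1 in elongating spermatid-like cells of WT, and 6, 4 and 2 in KO.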

How the data were processed

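Single-cell RNA libraries from 1 WT and 1 KO testis sample were analysed. The authors deposited whole-number counts of UMIs per gene and cell barcode, without normalization. Per the study's methods and the submitters' processing notes, reads were trimmed with fastp, aligned with STAR 2.5.3a and counted with featureCounts 1.6.2. The methods name a human build, GRCh38, while the symbols are mouse, and which barcodes were kept is not given in the sources used here. Genes listed for only 1 library were set to 0 in the other.

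All barcodes passed the filter of over 500 genes, the lowest having 564 in WT and 833 in KO. Libraries were integrated in R 4.3.3 with Seurat 5.3.0 (2000 variable features, 20 anchor dimensions, 30 principal components, resolution 0.3, seed 1), with the CatSper genes and 2 partner lists removed from the features. Clusters were named from marker lists: a marker was detected with a UMI in at least 10% of cells and a fold of 2, and 3 were needed. Scrublet in scanpy 1.11.5 (rate 0.06) called 4.24% of WT and 4.92% of KO cells doublets, which were kept.

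UMIs were summed per library and cluster in Python 3.11.15 (numpy 2.4.6, scipy 1.17.1, pandas 2.3.3). Sums have exact Poisson, shares exact Clopper-Pearson and log2 ratios exact conditional binomial intervals at 95%. No test was made between genotypes, since cells of 1 library are not replicates. A gene was judged by the size criterion where 25% or more of WT or of KO cells had a UMI, and by the CPM ratio where it had at least 50 UMIs in both libraries together. The code was checked on simulated data. Named were all 8 genes, the partner genes of the first list, and per gene the 3 closest profiles among genes with at least 500 UMIs that were also found in 10% or more of a cluster's cells. The genes and lists were chosen with earlier results of these data known. Promoter sequences come from RefSeq (GRCm38.p6) and positions from GENCODE vM21.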

Additional observations from a re-analysis of the deposited data

Results flagged for a closer look

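Genes of the channel that were beyond counting error higher in KO in 1 germ cell cluster and lower in another, at a level of at least 10% of the peak, are given here, and the difference between the clusters was not tested.

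Catsperd had a log2 ratio of KO to WT of 0.31 in the Tnp2 elongating spermatid-like cluster, against -0.99 in spermatogonia-like cells, -0.23 in Piwil1, -0.37 in Cd46, -0.59 in Klk1b8 and -0.99 in Spem1. In KO the last of these rests on 27 UMIs in 150 cells. In spermatogonia-like cells the Catsperd level of 20.4 CPM in WT and 10.2 in KO was near that of Leydig-like cells, at 15.6 and 10.8.

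Efcab9 had a log2 ratio of 0.13 in the Cst13 round spermatid-like cluster against -0.08 in Ssxb1, both small beside its levels of 248 and 972 CPM in WT.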

How the results depend on the processing

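No paired analysis was possible because the labels number no replicates and each genotype is 1 library. The division of 4 genes highest in late spermatocyte-like and 4 in round spermatid-like cells, and the 0 genes past the criterion in pooled germ cells and in both classes, held under each alternative run for them. These were the CatSper genes and partners kept among the features, resolution 0.8, cells with over 1000 genes, doublets removed, mitochondrially encoded and ribosomal protein genes left out of the totals, a CPM ratio of 1.5, and a UMI in 10% of cells. The median log2 ratio ranged from -0.18 to -0.12 in pooled germ cells, from -0.20 to -0.11 in late spermatocyte-like and from -0.14 to -0.11 in round spermatid-like cells. Catsper4 stayed between 0.69 and 0.79 in the Cst13 and between 0.90 and 1.13 in the Prss58 cluster or the cluster that held most of its cells. Efcab9 in pooled germ cells lay between -0.05 and 0.04, so its direction was not fixed. In late spermatocyte-like cells it went from -0.14 to -1.03 with over 1000 genes per cell, where Catsper4 went from -0.39 to 0.28. Catsper3 went from 0.16 to -0.35 there, and to -0.47 with the CatSper genes and partners kept, where Catsper1 went from 0.14 to -0.17. In the main run the intervals of these 4 genes in late spermatocyte-like cells spanned 0. The cause was not tested. Without thinning, all 8 genes in place of 7 were found in at least 25% of round spermatid-like cells. Depth limits the Tnp2, Klk1b8 and Spem1 clusters, where KO sums of most of the 8 genes were below 100 UMIs.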
